A study of Mus musculus with 6 samples.

Results

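Microglia, the resident macrophages of the central nervous system, were described in mice with experimental autoimmune encephalomyelitis (EAE) and in healthy mice. They were taken as 2594 of the 9079 cell barcodes in 6 droplet single-cell libraries, or of the 5101 barcodes in the 4 libraries compared, chosen by the cells' own measured UMIs (unique molecular identifiers, each standing for 1 captured RNA molecule). A cell passed the gate when it held at least 5 UMIs of the microglia genes Tmem119, P2ry12, Siglech, Sparc and Olfml3 together, when that sum exceeded 2 times its UMIs of the monocyte genes Ccr2, Ly6c2, Fn1, F10, Tgfbi, S100a4 and Plac8, and when it held at most 1 UMI of the endothelial genes Cldn5, Flt1 and Itm2a. Of the members, 497 and 233 came from EAE ROS- replicates 1 and 2, and 1728 and 136 from healthy ROS- replicates 1 and 2.

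All libraries were made from CD11b+ cells sorted from the spinal cord of C57BL/6 mice 10 weeks of age. The EAE mice had been immunised with the myelin peptide MOG35-55 and were taken at disease onset, at a clinical score of 1. Cells of every group, healthy ones included, were loaded with 10 µM DCFDA, a dye that fluoresces when oxidised by reactive oxygen species (ROS), and the ROS- libraries hold the cells sorted as dye-negative. A pair of EAE ROS+ libraries, of dye-positive cells, held 25 and 15 gated cells and stayed out of the comparison. Both groups compared are therefore the dye-negative part of CD11b+ cells, and both had passed enzymatic digestion at 37 °C and myelin removal. The labels do not say whether replicates came from separate mice or whether mice were pooled, so p-values measure only the spread between these libraries, which may be technical.

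Microglia settle in the nervous system before birth and keep a homeostatic programme that depends on colony-stimulating factor 1, TGF-beta and transcription factors such as Sall1 and Mef2 proteins. In EAE, an animal model of multiple sclerosis, T cells specific for myelin enter the spinal cord with blood monocytes, which can take on macrophage and dendritic cell programmes beside the resident microglia. Interferon-gamma from T cells is a known inducer of antigen presentation and chemokine genes in microglia, and microglia near damaged myelin are known to express a disease-associated set of lysosomal and lipid genes.

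Gated cells were 30.8% (exact 95% interval 28.5% to 33.1%) and 15.2% (13.5% to 17.1%) of barcodes in the EAE libraries and 98.5% (97.8% to 99.0%) and 67.3% (60.4% to 73.7%) in the healthy libraries, intervals that cover counting error only. Depth differed between the groups: gated cells held a median of 6626 and 4757 UMIs in EAE against 2195 and 3314 in healthy mice, and 4016773, 1270658, 4399826 and 520029 UMIs in all. The smallest barcode of each library held 3620 and 2535 UMIs in EAE against 612 and 578 in healthy mice. At the edge of the gate, 3, 1, 13 and 1 cells held exactly 5 microglia UMIs, and 0, 0, 16 and 3 cells that met the other conditions held 4. The monocyte condition left out 272 and 147 EAE cells and no healthy cell, while the endothelial condition left out 61 cells of healthy replicate 2 and at most 2 in any other library. Any 2 of the 4 libraries shared at most 4 barcodes and at most 1 gated barcode.

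The gate genes chose the cells and are given as a description, with no test, in CPM, a gene's share of the library's scaled gated UMIs. P2ry12, the purinergic receptor that marks resting microglia, stood at 421 and 461 CPM in EAE and 2312 and 2588 in healthy microglia, and Tmem119 at 649 and 909 against 1602 and 1749. Siglech stood at 430.0 and 352 against 715 and 917 CPM, Sparc at 2099.9 and 1735 against 1936 and 3005, and Olfml3 at 1244 and 1514 against 1356 and 1584. The label was checked with 9 microglia markers outside the gate, Gpr34, Cx3cr1 and Sall1 among them; all 9 were detected in all 4 libraries. They summed to 9255 and 9035 CPM of the plain gated total in EAE and 15394 and 17779.8 in healthy gated cells, against 1204 and 817 in the monocyte-gated cells of the EAE libraries, defined next.

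RNA of other cell types was counted beside these values with marker lists that share no gene with the gate. All CPM values in this paragraph refer to plain totals, except that of the gate gene Cldn5. The 15 monocyte and macrophage markers, Ms4a7, Chil3 and Cd44 among them, summed to 394 and 379 CPM of the plain gated total in EAE and 23.6 and 17.3 in healthy gated cells, with 15 and 15 of the 15 detected in EAE against 14 and 6. In the monocyte-gated cells of the same EAE libraries the list summed to 2962 and 3742. These cells held at least 5 monocyte UMIs, more than 2 times their microglia UMIs, and at most 1 endothelial UMI. The EAE microglia thus stood at 13.3% and 10.1% of the monocyte level, and 12 of the 12 tested markers were higher in EAE microglia. The healthy libraries held no monocyte-gated cell. The gate's own monocyte genes were at 0 UMIs in 6.84% and 6.44% of EAE microglia against 89.9% and 82.4% of healthy microglia. The 12 T and NK cell markers summed to 68.7 and 32.3 against 15.5 and 25.0 CPM. Klrd1 made up most of the healthy level, at 14.8 and 25.0 CPM. Of the 3 tested, Cd3g and Nkg7 were called higher in EAE and Klrd1 was not called. Trac was at 0 in every library, and at only 0.524 and 0.220 CPM in the monocyte-gated cells. The 7 border macrophage markers summed to at most 3.49 CPM in any library. The 10 neutrophil markers summed to 14.7 and 15.7 against 5.23 and 1.92 CPM. The 10 dendritic cell markers summed to 82.9 and 132 against 465 and 298, where Fscn1, also a gene of resting microglia, made up most of the healthy level. Of the 5 tested, Ccl17, Ccl22 and Ccr7 were called higher in EAE, Fscn1 lower and Batf3 not called. Ccl17 stood at 9.46 and 45.6 CPM in EAE against 0.227 and 0 in healthy gated cells. Healthy replicate 2 stood apart in endothelial RNA: 54.4% of its gated cells held no UMI of the 3 endothelial gate genes, against 99.8% in healthy replicate 1 and 94.6% and 98.3% in EAE, and Cldn5 stood at 56.3 CPM there and at most 0.286 in the others. The 13 endothelial markers outside the gate summed to 729 and 743 against 565 and 831 CPM. Bsg made up most of this sum in every library, at 677 and 670 against 528 and 621 CPM. The 8 astrocyte markers summed to 146 and 131 against 136 and 298, and the 10 oligodendrocyte markers to 85.6 and 109 against 126 and 159.6. With no endothelial gate UMI allowed, 1521 genes were higher and 1024 lower in the test below, and without healthy replicate 2, 1810 and 1239. Apart from this, what RNA of other cells contributes to the differences between the groups was tested only for monocytes, by subtracting the monocyte-gated profile; its effect is given beside the results it changed.

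The first question was which genes differed between EAE and healthy microglia. Of 10760 genes tested on UMI sums per library with edgeR's quasi-likelihood test, with a call at an adjusted p under 0.05 after Benjamini and Hochberg, 1536 were higher (14.3%) and 1076 lower (10.0%) in EAE microglia, and 3845 had an unadjusted p under 0.05. In log2 terms the median difference over all tested genes was -0.03, and the biological coefficient of variation was 0.181. With plain library totals instead of TMM (trimmed mean of M values) scaling, the median was -0.31 and the split 1075 higher and 1784 lower. Of those calls 37.6% were higher, rather than 58.8%. Calls of small differences therefore depend on the scaling, and a CPM value is a share of a library's RNA. With DESeq2, a different test, the median was -0.002 and the split 1005 and 468, or 68.2% higher. Groups that do not overlap are common with 2 libraries against 2: among all 10760 genes both EAE libraries lay above both healthy libraries in 31.2% and below both in 30.5%, so the call and not the separation is read below. In UMIs per cell, both EAE libraries lay above both healthy libraries for 1535 of the 1536 higher genes and below both for 474 of the 1076 lower genes, against 61.5% above and 4.89% below over all tested genes; EAE cells held more UMIs.

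The genes with the largest differences (average level of at least 5 on the log2 CPM scale) were, on the higher side, Il18bp, Cxcl13, Iigp1, Cd36, Cfb, H2-Eb1, Ifi47, H2-Aa, Ch25h, Gbp4, Gbp6 and Mnda. Iigp1, an interferon-inducible GTPase, stood at 310.1 and 677 CPM in EAE and 0.821 and 0 in healthy microglia (log2 9.30 ± 0.56 SE, adjusted p = 6.12e-09). Cd36, the scavenger receptor for oxidised lipids and fatty acids, stood at 295 and 224 CPM in EAE and 0.821 and 0 in healthy microglia (log2 8.39 ± 0.44 SE, adjusted p = 2.99e-09). Each had 4 UMIs over all healthy cells, so both were near absent there and readily detected in both EAE libraries. Mnda, a nuclear protein of the interferon-inducible p200 family, stood at 190.0 and 247 CPM in EAE and 1.44 and 0 in healthy microglia (log2 7.36 ± 0.42 SE, adjusted p = 4.22e-09). Il18bp, the secreted inhibitor of interleukin-18, gave 883 against 1 UMIs in all, a ratio of 1016 with a 95% counting interval of 182 to 40183, adjusted p = 2.99e-09. Ch25h, which makes the oxysterol 25-hydroxycholesterol, gave 484 against 3 UMIs in all, a ratio of 186 with a 95% counting interval of 63.2 to 903, adjusted p = 1.63e-08. The interferon-inducible GTPases Gbp4, Gbp6 and Ifi47 had 475, 320 and 360 UMIs in EAE against 3, 2 and 2 in healthy microglia. None of the genes just named is in the monocyte marker list, but that list is short and this is no measure of monocyte RNA among them. Levels of Cfb and Cd36 beside the monocyte-gated cells are given below. A gene at 0 in healthy replicate 2, such as Iigp1, Cd36 and Mnda here and Zbp1, Ccl7, Arg1, Cd40 and Ube2c below, allows no fold without healthy replicate 1. Leaving out a single library, the log2 difference became 8.65 (EAE replicate 2 left out) for Iigp1.

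On the lower side the leading genes were of mixed function. Gp9, a subunit of the platelet glycoprotein complex, stood at 4.01 and 3.29 CPM in EAE and 89.9 and 89.0 in healthy microglia (log2 -4.54 ± 0.33 SE, adjusted p = 5.26e-08). Thrsp, a nuclear protein linked to lipid synthesis, stood at 4.29 and 2.47 CPM in EAE and 72.0 and 72.6 in healthy microglia (log2 -4.25 ± 0.35 SE, adjusted p = 1.84e-07). The healthy replicates were nearly equal for both genes, and both EAE libraries were more than 10 times lower. Gpr34, the lysophosphatidylserine receptor of microglia, stood at 231 and 131 CPM in EAE and 1629.8 and 1889 in healthy microglia (log2 -3.26 ± 0.29 SE, adjusted p = 3.95e-07). Hpgd, which inactivates prostaglandins, stood at 50.4 and 47.7 CPM in EAE and 498 and 450.4 in healthy microglia (log2 -3.27 ± 0.24 SE, adjusted p = 5.87e-08). Fscn1, an actin-bundling protein also in the dendritic cell marker list, stood at 26.6 and 25.5 CPM in EAE and 361 and 232 in healthy microglia (log2 -3.53 ± 0.28 SE, adjusted p = 1.09e-07). Per cell, Gpr34 stood at 1.62 and 0.682 against 4.59 and 7.65 UMIs per cell. On the same scale Hpgd stood at 0.354 and 0.249 against 1.40 and 1.82 UMIs per cell and Fscn1 at 0.187 and 0.133 against 1.02 and 0.941 UMIs per cell. Among the other leading genes the log2 difference was -3.54 for the transcription factor Sox4, -3.52 for the uncharacterised 3222401L13Rik, -3.50 for the protease Adamts1, -3.42 for Csmd3 and -3.10 for Lrba. When 1 library was dropped, the log2 difference became -4.86 (EAE replicate 1 left out) for Thrsp, -4.46 (EAE replicate 1 left out) for Sox4, -2.83 (EAE replicate 1 left out) for Adamts1, -3.82 (EAE replicate 1 left out) for Lrba and -4.77 (EAE replicate 1 left out) for 3222401L13Rik.

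**Figure D1:**
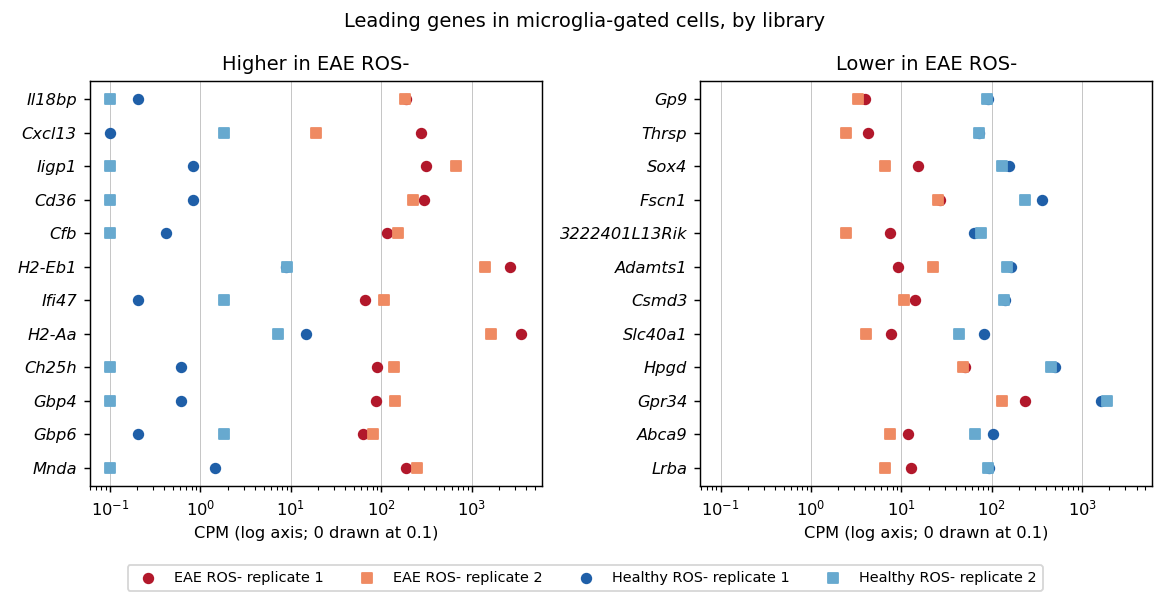
CPM in microglia of each of the 4 libraries (log axis, with 0 drawn at 0.1) for the 24 genes with the largest differences, 12 per direction, 1 line of points per gene. EAE and healthy points do not overlap for any of these genes, which is part of how they were chosen; Gpr34 stands at 231 and 131 CPM in EAE against 1629.8 and 1889 CPM in healthy microglia.

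The 28 gene lists below were read against the background of 14.3% higher and 10.0% lower. The lists with the highest share of members called higher were mitosis (29 of 29 tested), MHC class I (20 of 20), MHC class II (11 of 12) and interferon response (32 of 35), and those with the highest share called lower were immediate-early genes (17 of 22) and microglia identity genes (21 of 30). Counts and medians over a list are descriptions, since its members are not independent of each other.

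**Figure D2:**
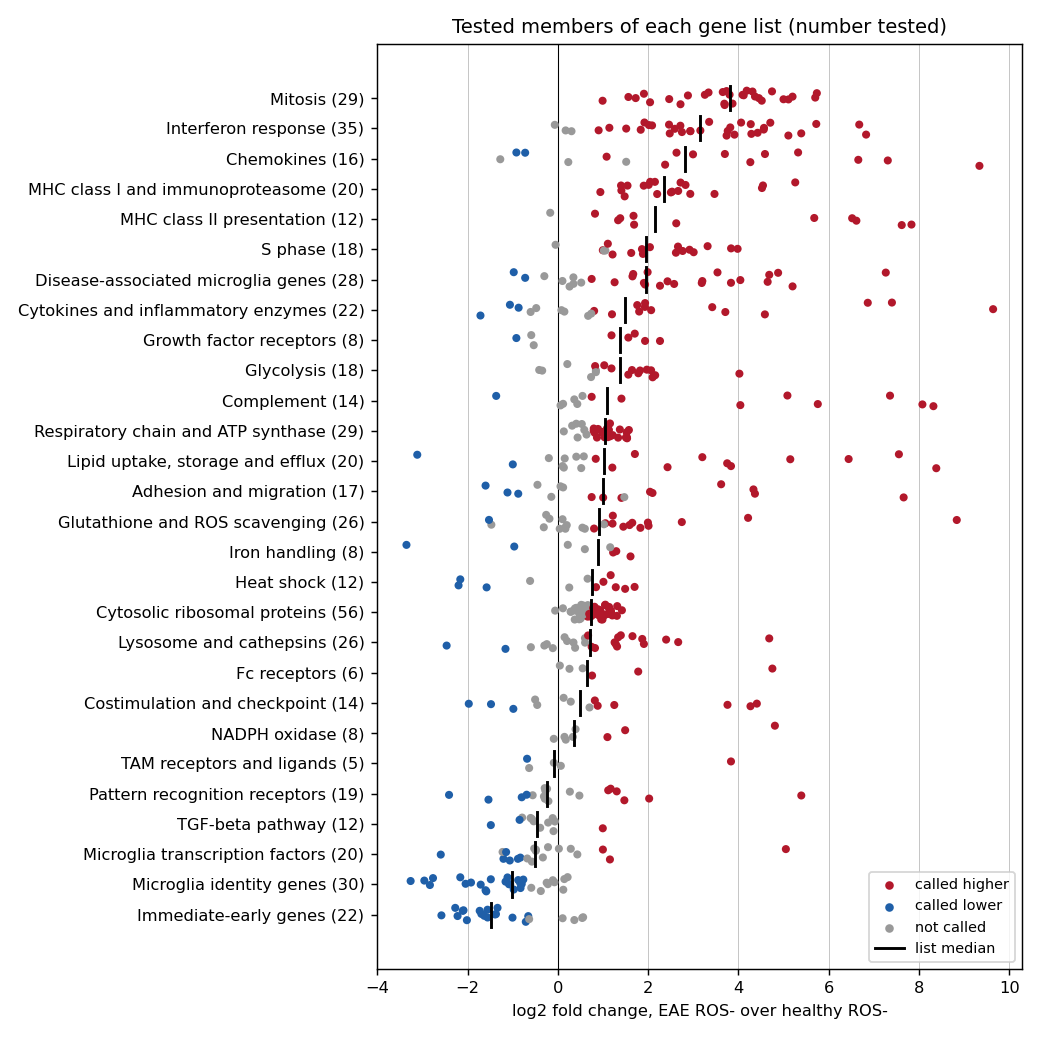
Log2 difference (EAE minus healthy microglia) of every tested member of the 28 gene lists, 1 line per list, red where called higher, blue where called lower and grey where not called, with a black bar at the list's median. Medians run from -1.48 for the immediate-early genes to 3.80 for the mitosis genes, and the median over all tested genes is -0.03.

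Interferon response genes were higher in EAE microglia nearly throughout: 32 of the 35 tested passed the test, none was lower, and the median log2 difference was 3.16. Interferons act through STAT and IRF transcription factors, and IRF-containing complexes bind repeats of the GAAA half-site in target promoters (the interferon-stimulated response element). Promoters are shown for 2 genes induced by interferon that hold such repeats and were higher here, the modifier Isg15 and the chemokine Cxcl10; each run is the 250 bases before the RefSeq start site (GRCm38.p6), 5′ to 3′ on the gene's strand, with GAAANNGAAA on either strand in capitals.
Isg15 (chr4:156200819-156201068, - strand): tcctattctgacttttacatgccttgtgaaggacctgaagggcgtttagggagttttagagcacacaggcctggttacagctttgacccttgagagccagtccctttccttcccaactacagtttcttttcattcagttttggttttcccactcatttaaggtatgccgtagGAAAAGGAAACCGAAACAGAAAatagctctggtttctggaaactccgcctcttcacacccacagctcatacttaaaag
Cxcl10 (chr5:92348890-92349139, - strand): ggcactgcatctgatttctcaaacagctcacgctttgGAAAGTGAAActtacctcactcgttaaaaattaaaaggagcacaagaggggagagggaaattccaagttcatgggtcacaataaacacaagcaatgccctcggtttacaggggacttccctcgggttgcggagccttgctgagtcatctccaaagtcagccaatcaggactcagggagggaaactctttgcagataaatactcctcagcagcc

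In Isg15 the motif began 78, 72 and 66 bases before the start site, as overlapping copies, and in Cxcl10 213 bases before it. Of 27 interferon list members with a promoter in the table, 15 (55.6%) held the motif, against 936 of 27025 genes (3.46%), 82 of 1101 genes called higher (7.45%) and 22 of 685 called lower (3.21%); 2.98% of all 32851 promoter windows held it. A match describes the letters of the window and is no measure of binding, and the list holds genes known to carry this element.

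Antiviral effectors of the list were described first. Ifitm3, which restricts virus entry, stood at 1318 and 1542 CPM in EAE and 36.1 and 29.1 in healthy microglia (log2 5.39 ± 0.29 SE, adjusted p = 2.99e-09). Ifi27l2a, a small interferon-inducible membrane protein, stood at 1774 and 1609.7 CPM in EAE and 53.8 and 40.0 in healthy microglia (log2 5.11 ± 0.28 SE, adjusted p = 3.78e-09). Isg15, the ubiquitin-like modifier, stood at 286 and 335 CPM in EAE and 14.8 and 19.98 in healthy microglia (log2 4.27 ± 0.29 SE, adjusted p = 1.67e-08). For these 3 genes both EAE libraries lay more than 10 times above both healthy libraries, and replicates were close in each group. Gbp2, a guanylate-binding protein of host defence, stood at 524 and 936 CPM in EAE and 7.39 and 5.45 in healthy microglia (log2 6.68 ± 0.38 SE, adjusted p = 4.35e-09). Zbp1, a sensor of Z-form nucleic acids, stood at 285 and 377 CPM in EAE and 3.28 and 0 in healthy microglia (log2 6.83 ± 0.40 SE, adjusted p = 4.35e-09). Among their regulators the log2 difference was 4.57 for Irf7 and 2.48 for Stat2, both called. The 3 members that missed the threshold were Irf1 (log2 0.30), Irf9 (0.17) and the RNA sensor Ddx58 (-0.07). For Irf1, at 202 and 212 against 247 and 63.6 CPM, the healthy libraries lay on either side of the EAE libraries. Ifitm3, the Gbp genes and Iigp1 have close paralogs, and reads may be divided between copies. Without 1 of the libraries, the log2 difference became 5.15 (healthy replicate 1 left out) for Irf7, 4.21 (healthy replicate 1 left out) for Stat2, 1.67 (healthy replicate 1 left out, now called) for Irf1 and 0.96 (healthy replicate 1 left out) for Irf9.

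Genes for MHC class II presentation, the display of peptides to CD4+ T cells, were higher in 11 of 12 tested members, with a median log2 difference of 2.16; the other, H2-Ob, stood at 32.3 and 12.3 against 28.1 and 25.4 CPM. Class II promoters carry a conserved X and Y box, and the Y box holds the letters ATTGG, an inverted CCAAT box bound by NF-Y. The promoters of 2 class II chain genes with wide gaps between the groups are shown with ATTGG, or its reverse complement CCAAT, in capitals (RefSeq, GRCm38.p6, 250 bases before the start site, 5′ to 3′).
H2-Eb1 (chr17:34305617-34305866, + strand): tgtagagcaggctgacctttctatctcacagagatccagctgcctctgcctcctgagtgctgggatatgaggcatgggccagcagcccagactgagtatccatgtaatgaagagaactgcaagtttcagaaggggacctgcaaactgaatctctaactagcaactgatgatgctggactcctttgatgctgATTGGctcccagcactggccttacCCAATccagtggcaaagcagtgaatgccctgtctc
H2-Aa (chr17:34287824-34288073, - strand): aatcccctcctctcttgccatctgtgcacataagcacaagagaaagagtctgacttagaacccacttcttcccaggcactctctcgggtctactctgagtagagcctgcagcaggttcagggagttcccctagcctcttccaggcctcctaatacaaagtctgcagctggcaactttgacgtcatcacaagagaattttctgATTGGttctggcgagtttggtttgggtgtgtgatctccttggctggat

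The motif began 59 and 35 bases before the start site in H2-Eb1 and 48 bases before it in H2-Aa. It was found in 7 of 9 class II genes (77.8%) and 12 of 17 class I genes (70.6%) with a promoter in the table, against 37.5% of 27025 genes and 33.9% of 32851 windows; so short a motif is common in windows of this length.

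H2-Eb1, a class II beta chain, stood at 2659 and 1412 CPM in EAE and 8.83 and 9.08 in healthy microglia (log2 7.84 ± 0.40 SE, adjusted p = 2.99e-09). H2-Aa, the alpha chain of I-A, stood at 3545 and 1636 CPM in EAE and 14.8 and 7.26 in healthy microglia (log2 7.62 ± 0.44 SE, adjusted p = 4.35e-09). H2-Ab1, the beta chain of I-A (chr17:34257689-34269419, + strand), stood at 5163 and 2667 CPM in EAE and 38.2 and 43.6 in healthy microglia (log2 6.61 ± 0.37 SE, adjusted p = 4.22e-09). For each of these chains EAE replicate 1 lay above EAE replicate 2, and both lay far above the healthy libraries. Cd74, the invariant chain that escorts class II molecules, stood at 12550.4 and 6578 CPM in EAE and 88.3 and 127 in healthy microglia (log2 6.52 ± 0.38 SE, adjusted p = 4.35e-09). The peptide-exchange genes differed less, with a log2 difference of 1.69 for H2-DMa and 1.68 for H2-DMb1. Ciita, the class II transactivator, was sparse, with 59 against 1 UMIs in all, a ratio of 67.9 with a 95% counting interval of 11.7 to 2727, adjusted p = 9.86e-05. With 1 library left out, the log2 difference became 6.94 (EAE replicate 1 left out) or 8.44 (healthy replicate 1 left out) for H2-Aa and -1.16 (EAE replicate 1 left out) for H2-Ob.

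MHC class I and immunoproteasome genes, which serve the display of peptides to CD8+ T cells, were higher in all 20 tested members, with a median log2 difference of 2.35. H2-K1, a classical class I chain, stood at 3616 and 2736 CPM in EAE and 414 and 418 in healthy microglia (log2 2.93 ± 0.26 SE, adjusted p = 3.56e-07). H2-Q7, a non-classical chain, stood at 691 and 522 CPM in EAE and 14.6 and 19.98 in healthy microglia (log2 5.26 ± 0.31 SE, adjusted p = 4.35e-09). H2-Q6, its near-identical paralog, stood at 162 and 151 CPM in EAE and 7.39 and 3.63 in healthy microglia (log2 4.52 ± 0.31 SE, adjusted p = 2.23e-08). How reads divide between H2-Q6 and H2-Q7 is uncertain, but both were far below the classical chain in healthy microglia. Tap1, which pumps peptides into the endoplasmic reticulum, stood at 306 and 392 CPM in EAE and 30.8 and 32.7 in healthy microglia (log2 3.47 ± 0.27 SE, adjusted p = 8.00e-08). Log2 differences stood at 2.72 for H2-D1, 2.15 for the immunoproteasome subunit Psmb8, 2.50 for Psmb9 and 2.20 for the shared light chain B2m. Leaving out a single library, the log2 difference became 5.38 (healthy replicate 1 left out) for H2-Q6.

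Among 16 chemokine genes tested, 11 were higher and 2 lower, with a median log2 difference of 2.81. Cxcl10, a ligand of CXCR3 that draws activated T cells, stood at 685 and 766 CPM in EAE and 45.8 and 19.98 in healthy microglia (log2 4.26 ± 0.31 SE, adjusted p = 4.65e-08). Cxcl9, another ligand of CXCR3, stood at 272 and 62.5 CPM in EAE and 1.64 and 1.82 in healthy microglia (log2 6.66 ± 0.69 SE, adjusted p = 2.35e-06). Cxcl10 was close between EAE replicates, whereas Cxcl9 was several times higher in EAE replicate 1. Ccl2, the ligand of CCR2 that draws monocytes, stood at 1151 and 1623 CPM in EAE and 139.8 and 58.1 in healthy microglia (log2 3.70 ± 0.34 SE, adjusted p = 5.46e-07). Ccl7, a second ligand of CCR2, stood at 125 and 194 CPM in EAE and 4.52 and 0 in healthy microglia (log2 5.32 ± 0.41 SE, adjusted p = 8.87e-08). Both ligands of CCR2 were higher in EAE replicate 2 than in EAE replicate 1. Differences on the log2 scale were 4.59 for Ccl5, 2.38 for Ccl12 and 1.08 for Ccl4, all called, and 0.23 for Ccl3, not called. Cxcl13, which draws B cells, was the most uneven, at 276 and 18.9 CPM in EAE and 0 and 1.82 in healthy microglia, or 986 against 1 UMIs in all, a ratio of 1135 with a 95% counting interval of 203 to 44865, adjusted p = 8.97e-05. Its fitted log2 value was 6.10 without EAE replicate 1 and 9.34 with it. Ccl9 and Ccl6 were lower, with log2 differences of -0.92 and -0.73. When 1 library was dropped, the log2 difference became 5.15 (healthy replicate 1 left out) for Cxcl10, 5.16 (EAE replicate 1 left out) or 7.32 (EAE replicate 2 left out) for Cxcl9, 4.55 (healthy replicate 1 left out) for Ccl2, 3.64 (EAE replicate 1 left out) or 3.47 (healthy replicate 1 left out) or 5.64 (healthy replicate 2 left out) for Ccl5, -0.68 (EAE replicate 2 left out, no longer called) or -0.60 (healthy replicate 2 left out, no longer called) for Ccl9 and -0.62 (EAE replicate 1 left out, no longer called) or -0.85 (EAE replicate 2 left out, no longer called) or -0.65 (healthy replicate 1 left out, no longer called) for Ccl6. After subtraction of the monocyte profile, the log2 difference became 3.58 for Ccl5 (from 4.59).

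Cytokine and inflammatory enzyme genes were higher in 13 of 22 tested members and lower in 3, with a median log2 difference of 1.48. Il1b, the precursor of interleukin-1 beta, stood at 425 and 321 CPM in EAE and 39.8 and 23.6 in healthy microglia (log2 3.42 ± 0.28 SE, adjusted p = 1.92e-07). Il1rn, the antagonist of its receptor, stood at 83.3 and 64.1 CPM in EAE and 6.36 and 1.82 in healthy microglia (log2 3.71 ± 0.35 SE, adjusted p = 9.58e-07). Both genes were more abundant in the monocyte-gated cells of the same libraries: microglia held 17.5% and 10.3% of the monocyte level of Il1b and 15.1% and 6.49% of that of Il1rn. Once the monocyte profile was subtracted their log2 differences were 0.96 and 0.42, and neither was called. Arg1, arginase 1, stood at 111 and 178 CPM in EAE and 6.98 and 0 in healthy microglia (log2 4.59 ± 0.41 SE, adjusted p = 5.18e-07). This is 11.1% and 8.25% of the monocyte level. With the monocyte profile subtracted, Arg1 fell below the count filter and was not tested. Tnf, tumour necrosis factor, was called with a log2 difference of 0.80, and Il1a was not, at 0.14. Il6 was lower, with a log2 difference of -1.72. The count of higher genes was 7 without EAE replicate 1, 8 with the monocyte profile subtracted and 5 in cells thinned to 1000 UMIs and gated again with at least 3 microglia UMIs. Without 1 of the libraries, the log2 difference became 5.28 (healthy replicate 1 left out) for Il1rn, 0.83 (EAE replicate 1 left out, no longer called) or 0.77 (EAE replicate 2 left out, no longer called) or 1.44 (healthy replicate 1 left out) or 0.49 (healthy replicate 2 left out, no longer called) for Tnf and -1.47 (EAE replicate 1 left out, no longer called) or -1.79 (healthy replicate 1 left out, no longer called) for Il6. After subtraction of the monocyte profile, the log2 difference became -2.62 for Il6 (from -1.72).

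Of 14 costimulation and checkpoint genes, 6 were higher and 3 lower. Cd274, the checkpoint ligand PD-L1, stood at 85.0 and 111 CPM in EAE and 6.36 and 10.9 in healthy microglia (log2 3.76 ± 0.33 SE, adjusted p = 4.35e-07). Cd40, the receptor for T cell help, stood at 30.0 and 24.7 CPM in EAE and 1.44 and 0 in healthy microglia (log2 4.41 ± 0.54 SE, adjusted p = 1.59e-05). Cd72, a lectin-like inhibitory receptor, stood at 356 and 259 CPM in EAE and 16.4 and 14.5 in healthy microglia (log2 4.27 ± 0.29 SE, adjusted p = 2.14e-08). All 3 had low levels in both healthy libraries. Vsir, the checkpoint protein VISTA that resting microglia express, stood at 285 and 281 CPM in EAE and 1018 and 1213 in healthy microglia (log2 -1.98 ± 0.23 SE, adjusted p = 9.85e-06). Vsir thus fell, while of the costimulatory ligands Cd86 was higher (log2 0.82) and the sparser Cd80 lower (log2 -1.48). Among 6 Fc receptor genes, 3 were higher and none lower. Fcgr4, an activating receptor for IgG, stood at 490.4 and 683 CPM in EAE and 19.1 and 29.1 in healthy microglia (log2 4.75 ± 0.31 SE, adjusted p = 1.61e-08). In log2 units the difference was 1.78 for the inhibitory Fcgr2b and 0.76 for the high-affinity Fcgr1, both called, and 0.55 for their signalling chain Fcer1g and 0.04 for Fcgr3, neither called. With 1 library left out, the log2 difference became 3.11 (healthy replicate 1 left out) for Cd274, 0.54 (EAE replicate 2 left out, no longer called) or 0.45 (healthy replicate 1 left out, no longer called) for Fcgr1, 0.58 (EAE replicate 1 left out, no longer called) or 0.70 (healthy replicate 1 left out, no longer called) for Cd86 and -1.64 (EAE replicate 1 left out, no longer called) or -1.38 (EAE replicate 2 left out, no longer called) or -0.99 (healthy replicate 1 left out, no longer called) for Cd80. Once the monocyte profile was subtracted, the log2 difference became 3.64 for Cd40 (from 4.41).

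Pattern recognition receptors moved in both directions, 6 of 19 higher and 4 lower, with a median log2 difference of -0.24. Ly86, the partner of the Toll-like homologue Cd180, stood at 4467 and 4625 CPM in EAE and 1676 and 2012 in healthy microglia (log2 1.30 ± 0.24 SE, adjusted p = 0.000718). Clec4a2, an inhibitory lectin, stood at 23.2 and 19.7 CPM in EAE and 120.5 and 111 in healthy microglia (log2 -2.41 ± 0.26 SE, adjusted p = 2.94e-06). On the log2 scale the difference was 1.47 for Tlr2, -1.54 for the lectin Clec4a3 and -0.80 for the endotoxin co-receptor Cd14, all called, and -0.29 for Tlr4 and -0.31 for Tlr7, neither called. The count of higher genes was 3 without EAE replicate 1 and 3 without healthy replicate 1. Complement genes were higher in 8 of 14 and lower in 1, with a median log2 difference of 1.08 and 3 higher in cells thinned and gated again. C4b, of the classical pathway, stood at 122 and 147 CPM in EAE and 0.411 and 3.63 in healthy microglia (log2 7.36 ± 0.49 SE, adjusted p = 1.63e-08). Cfb, factor B of the alternative pathway, gave 591 against 2 UMIs in all, a ratio of 340.1 with a 95% counting interval of 93.7 to 2815, adjusted p = 4.35e-09. C3, the component shared by all pathways, gave 164 against 3 UMIs in all, a ratio of 62.9 with a 95% counting interval of 21.2 to 308, adjusted p = 3.25e-06. Beside the monocyte-gated cells the 3 genes parted: microglia held 415% and 553% of the monocyte level of C4b, 19.8% and 14.3% of that of Cfb and 20.6% and 12.3% of that of C3. With the monocyte profile subtracted, Cfb stood at a fitted log2 value of 6.77 and C3 at 4.25, both called. The abundant subunits of C1q were not called, with log2 differences of 0.43 for C1qa, 0.36 for C1qb and 0.55 for C1qc. Leaving out a single library, the log2 difference became 5.15 (healthy replicate 1 left out) or 8.23 (healthy replicate 2 left out) for C4b and -0.62 (EAE replicate 2 left out, no longer called) for Cd14.

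Genes of the homeostatic microglia programme were lower in 21 of the 30 tested members outside the gate, none was higher, and the median log2 difference was -1.02. Cx3cr1, the fractalkine receptor, stood at 1456 and 1275 CPM in EAE and 2962 and 2964 in healthy microglia (log2 -1.12 ± 0.23 SE, adjusted p = 0.00193). P2ry13, a purinergic receptor, stood at 130.5 and 191 CPM in EAE and 420.2 and 632 in healthy microglia (log2 -1.71 ± 0.27 SE, adjusted p = 0.000166). Fcrls, an Fc receptor-like scavenger receptor, stood at 262 and 253 CPM in EAE and 922 and 1039 in healthy microglia (log2 -1.93 ± 0.23 SE, adjusted p = 1.09e-05). The log2 difference was -2.05 for the adhesion receptor Gpr56, -2.16 for the fructose transporter Slc2a5, -2.77 for leukotriene C4 synthase, Ltc4s and -2.84 for Ecscr. Trem2, the lipid receptor of microglia, was lower as a share of RNA, at 1546 and 1004 against 2114 and 2926 CPM (log2 -0.98), but stood at 10.9 and 5.24 against 5.96 and 11.8 UMIs per cell, where the groups overlapped. Cx3cr1 likewise overlapped between the groups in UMIs per cell. Fcrls was lower on both scales, at 1.84 and 1.32 against 2.60 and 4.21 UMIs per cell, as was Gpr34 above. Of the 9 members not called, Csf1r, the receptor microglia need to survive, stood at 1402 and 1537 against 2212 and 2214 CPM (log2 -0.59). For Crybb1, at 114 and 330.5 against 251 and 269 CPM (log2 -0.25), the EAE replicates lay on either side of the healthy libraries, and the log2 difference was -1.18, called lower, without EAE replicate 2 and 0.33 without EAE replicate 1. When 1 library was dropped, the log2 difference became -0.70 (EAE replicate 2 left out, no longer called) for Trem2.

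Of 20 transcription factors of microglia and macrophages, 6 were lower and 3 higher. Sall1, which maintains microglia identity, stood at 67.2 and 67.4 CPM in EAE and 160.1 and 149 in healthy microglia (log2 -1.21 ± 0.23 SE, adjusted p = 0.000869). Maf stood at 87.0 and 54.3 CPM in EAE and 469 and 401 in healthy microglia (log2 -2.60 ± 0.26 SE, adjusted p = 1.71e-06). Mef2a stood at 152 and 113 CPM in EAE and 294 and 265 in healthy microglia (log2 -1.07 ± 0.23 SE, adjusted p = 0.00289). Bhlhe40, a repressor of activated myeloid cells, stood at 22.6 and 32.1 CPM in EAE and 0.616 and 1.82 in healthy microglia (log2 5.05 ± 0.61 SE, adjusted p = 1.19e-05). The lineage factor Spi1 (PU.1) stood at a log2 difference of 0.02 and Irf8 at 0.29, with no call for either. Without EAE replicate 2, 3 factors were called lower, and with the monocyte profile subtracted Bhlhe40 fell below the count filter and no factor was called higher. Of 12 TGF-beta pathway genes 2 were lower and 1 higher. Tgfbr1, the signalling receptor, stood at 348 and 168 CPM in EAE and 799 and 657 in healthy microglia (log2 -1.49 ± 0.29 SE, adjusted p = 0.00121). Log2 differences stood at -0.85 for the repressor Skil and 0.99 for the repressor Tgif1, both called, and -0.60 for the ligand Tgfb1 and -0.22 for Tgfbr2, neither called. With plain totals 6 of the 12 were lower. Without 1 of the libraries, the log2 difference became 3.79 (healthy replicate 1 left out) for Bhlhe40, -0.88 (EAE replicate 2 left out, no longer called) for Mef2a, -2.14 (EAE replicate 1 left out) for Tgfbr1, -0.76 (EAE replicate 2 left out, no longer called) or -0.42 (healthy replicate 1 left out, no longer called) for Skil, 0.58 (EAE replicate 1 left out, no longer called) or 1.74 (healthy replicate 1 left out) for Tgif1 and -0.69 (healthy replicate 2 left out, now called) for Tgfb1. After subtraction of the monocyte profile, the log2 difference became 0.80 for Tgif1 (from 0.99, no longer called).

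Disease-associated microglia genes, a set described in neurodegeneration models, were higher in 20 of 28 tested members and lower in 2, with a median log2 difference of 1.96. Cst7, the cathepsin inhibitor cystatin F, stood at 762 and 296 CPM in EAE and 10.5 and 50.8 in healthy microglia (log2 4.68 ± 0.56 SE, adjusted p = 1.14e-05). Lgals3, galectin-3, stood at 590.5 and 425 CPM in EAE and 22.8 and 12.7 in healthy microglia (log2 4.65 ± 0.31 SE, adjusted p = 1.63e-08). Cst7 stood at 616% and 512% of the level of the monocyte-gated cells and Lgals3 at 20.1% and 12.6%, so the former lay above and the latter below them in both EAE libraries. Once the monocyte profile was subtracted, Lgals3 had a log2 difference of 3.01, still called. Lgals3bp, a secreted partner of galectin-3, stood at 974 and 730.1 CPM in EAE and 63.0 and 90.8 in healthy microglia (log2 3.54 ± 0.28 SE, adjusted p = 1.06e-07). Lilrb4, an inhibitory receptor, stood at 347 and 157 CPM in EAE and 7.18 and 5.45 in healthy microglia (log2 5.20 ± 0.41 SE, adjusted p = 1.07e-07). Itgax, the integrin CD11c, stood at 90.7 and 34.5 CPM in EAE and 3.69 and 5.45 in healthy microglia (log2 4.04 ± 0.48 SE, adjusted p = 1.05e-05). Differences on the log2 scale were 2.43 for Apoe, the main lipid carrier of the brain, 4.88 for Spp1, osteopontin and 3.19 for the lectin Clec7a. For Cst7, Lgals3, Lgals3bp, Lilrb4, Itgax, Apoe, Spp1 and Clec7a alike, EAE replicate 1 lay above EAE replicate 2. Gpnmb, a transmembrane glycoprotein of lipid-laden macrophages, gave 173 against 1 UMIs in all, a ratio of 199 with a 95% counting interval of 35.3 to 7909, adjusted p = 5.24e-07. Of its UMIs in EAE replicate 1, 90.2% were held by the 10% of cells with the most of them. With 1 library left out, the log2 difference became 3.80 (EAE replicate 1 left out) or 3.36 (healthy replicate 1 left out) or 5.68 (healthy replicate 2 left out) for Cst7, 5.29 (healthy replicate 1 left out) for Lgals3, 4.47 (EAE replicate 1 left out) for Lilrb4, 3.06 (EAE replicate 1 left out) for Itgax, 1.65 (EAE replicate 1 left out) for Apoe and 3.86 (EAE replicate 1 left out) for Spp1. With the monocyte profile subtracted, the log2 difference became 2.36 for Clec7a (from 3.19).

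Lysosome and cathepsin genes were higher in 14 of 26 and lower in 2, with a median log2 difference of 0.71. Ctsc, the cathepsin that activates granule proteases, stood at 2347 and 2468 CPM in EAE and 424 and 492 in healthy microglia (log2 2.40 ± 0.24 SE, adjusted p = 1.56e-06). Cstb, an inhibitor of cathepsins, stood at 742 and 613 CPM in EAE and 125 and 79.9 in healthy microglia (log2 2.67 ± 0.26 SE, adjusted p = 1.38e-06). Cst3, the secreted cystatin C, stood at 12510.4 and 11594 CPM in EAE and 62669 and 70526 in healthy microglia (log2 -2.47 ± 0.28 SE, adjusted p = 6.39e-06). Cst3 was 1 of the 2 lower genes of the list, and it was lower also per cell, at 88.0 and 60.5 against 177 and 286 UMIs per cell. In log2 units the difference was 1.65 for Ctsb and 1.87 for progranulin, Grn, both called, and 0.35 for the aspartyl protease Ctsd, not called. Among 20 genes of lipid uptake, storage and efflux, 11 were higher and 2 lower. Apoc2, the activator of lipoprotein lipase, stood at 133 and 52.6 CPM in EAE and 2.26 and 5.45 in healthy microglia (log2 5.15 ± 0.51 SE, adjusted p = 1.45e-06). On the log2 scale the difference was 1.71 for Plin2, which coats lipid droplets and -3.12 for the transporter Abca9, both called, and 0.52 for lipoprotein lipase, Lpl and 0.57 for Abca1, neither called. Receptors of the TAM family, which serve the clearance of apoptotic cells, went opposite ways. Axl stood at 273 and 101 CPM in EAE and 13.96 and 10.9 in healthy microglia (log2 3.84 ± 0.41 SE, adjusted p = 3.60e-06). Mertk stood at 144 and 132 CPM in EAE and 229.9 and 212 in healthy microglia (log2 -0.68 ± 0.22 SE, adjusted p = 0.0322). The ligands Pros1 and Gas6 were not called, with log2 differences of -0.09 and 0.07. After subtraction of the monocyte profile, Apoc2 stood at 3.68 and Cstb at 1.97, both called, and Mertk at -0.55, not called. Leaving out a single library, the log2 difference became 4.21 (EAE replicate 1 left out) or 4.10 (healthy replicate 1 left out) for Apoc2, 2.90 (EAE replicate 1 left out) for Axl, -0.77 (EAE replicate 1 left out, no longer called) or -0.62 (EAE replicate 2 left out, no longer called) or -0.65 (healthy replicate 1 left out, no longer called) for Mertk, -0.92 (EAE replicate 1 left out) or 1.11 (EAE replicate 2 left out, now called) or 0.79 (healthy replicate 2 left out, now called) for Lpl and -0.11 (EAE replicate 1 left out) or 0.95 (EAE replicate 2 left out, now called) for Abca1.

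Of 8 growth factor receptor and ligand genes 5 were higher and 1 lower. Csf2ra, the GM-CSF receptor alpha chain, stood at 362 and 270.5 CPM in EAE and 141 and 136 in healthy microglia (log2 1.19 ± 0.24 SE, adjusted p = 0.00136). Csf2rb, the common beta chain, stood at 126 and 129 CPM in EAE and 38.0 and 41.8 in healthy microglia (log2 1.70 ± 0.24 SE, adjusted p = 7.05e-05). The log2 difference was 1.56 for its near-identical paralog Csf2rb2 and 1.93 for the ligand Csf1, and reads between the paralogs are uncertain. Among 17 adhesion and migration genes 9 were higher and 3 lower (5 higher without EAE replicate 1). Itgal, the alpha chain of the integrin LFA-1, gave 219 against 1 UMIs in all, a ratio of 252 with a 95% counting interval of 44.8 to 9999.8, adjusted p = 1.12e-07. Selplg, the selectin ligand of resting microglia, stood at 916 and 1103 CPM in EAE and 2937 and 3194 in healthy microglia (log2 -1.60 ± 0.24 SE, adjusted p = 0.000104). The former was near absent from healthy microglia, and the latter fell in both EAE libraries. Log2 differences stood at 2.04 for the membrane metalloprotease Mmp14 and 4.37 for the hyaluronan receptor Cd44, also a monocyte marker. When 1 library was dropped, the log2 difference became 1.00 (healthy replicate 1 left out, no longer called) for Csf2rb2 and 3.54 (healthy replicate 1 left out) for Cd44. Once the monocyte profile was subtracted, the log2 difference became 3.62 for Cd44 (from 4.37). Cd44 is itself among the markers that set the scale of the subtraction, so this value is no separate check.

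Mitosis genes were higher in all 29 tested members, with a median log2 difference of 3.80, and S phase genes in 15 of 18, with a median of 1.96. Promoters of 2 mitosis genes are shown, with ATTGG on either strand, the CCAAT letters bound by NF-Y, in capitals. The motif occurred in 21 of 23 mitosis genes with a promoter in the table (91.3%) against 37.5% of all 27025 genes. Its share was 41.8% of genes called higher and 42.6% of genes called lower. The window of Birc5, described below, held none, and a match is no measure of binding.
Top2a (chr11:99024190-99024439, - strand): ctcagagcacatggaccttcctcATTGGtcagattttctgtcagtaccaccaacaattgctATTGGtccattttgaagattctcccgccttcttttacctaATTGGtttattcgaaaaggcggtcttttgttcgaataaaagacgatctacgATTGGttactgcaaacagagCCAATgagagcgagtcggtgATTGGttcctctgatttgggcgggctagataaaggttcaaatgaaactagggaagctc
Ccnb2 (chr9:70421555-70421804, - strand): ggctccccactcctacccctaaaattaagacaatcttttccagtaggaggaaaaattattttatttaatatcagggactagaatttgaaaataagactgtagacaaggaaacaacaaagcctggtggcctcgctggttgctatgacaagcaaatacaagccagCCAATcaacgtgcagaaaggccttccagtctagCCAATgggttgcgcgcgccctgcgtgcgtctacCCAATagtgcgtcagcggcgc

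The motif began 227, 189, 149, 98, 78 and 58 bases before the RefSeq start site (GRCm38.p6) in Top2a, the topoisomerase that untangles sister chromosomes, and 87, 54 and 21 bases before it in Ccnb2, cyclin B2. Top2a stood at 89.8 and 178 CPM in EAE and 9.24 and 27.2 in healthy microglia (log2 3.34 ± 0.43 SE, adjusted p = 2.32e-05). Ccnb2 stood at 51.5 and 49.3 CPM in EAE and 2.46 and 5.45 in healthy microglia (log2 4.12 ± 0.41 SE, adjusted p = 1.42e-06). Both genes were sparse in healthy microglia. Birc5, survivin of the chromosomal passenger complex, stood at 71.5 and 110.2 CPM in EAE and 2.87 and 1.82 in healthy microglia (log2 5.00 ± 0.40 SE, adjusted p = 1.09e-07). Ube2c, a ubiquitin-conjugating enzyme of mitotic exit, stood at 66.4 and 132 CPM in EAE and 2.05 and 0 in healthy microglia (log2 5.70 ± 0.50 SE, adjusted p = 3.56e-07). Stmn1, the microtubule regulator stathmin, stood at 250.3 and 378 CPM in EAE and 47.6 and 47.2 in healthy microglia (log2 2.72 ± 0.27 SE, adjusted p = 1.42e-06). EAE replicate 2 lay above EAE replicate 1 for all of these except Ccnb2. Rrm2, the S phase subunit of ribonucleotide reductase, stood at 27.2 and 61.7 CPM in EAE and 2.46 and 3.63 in healthy microglia (log2 3.98 ± 0.52 SE, adjusted p = 2.86e-05). Differences on the log2 scale were 3.01 for the helicase subunit Mcm6, 2.92 for Dut and 3.84 for Hells. Without 1 of the libraries, the log2 difference became 2.23 (healthy replicate 1 left out) for Top2a, 3.17 (healthy replicate 1 left out) for Ccnb2, 3.34 (EAE replicate 2 left out) for Rrm2, 4.33 (healthy replicate 1 left out) for Mcm6, 4.42 (healthy replicate 1 left out) for Dut and 2.73 (healthy replicate 1 left out) for Hells.

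These genes were carried by a part of the cells. Cells with 2 or more UMIs of 12 mitosis genes made up 27.97% and 33.0% of EAE microglia against 0.521% and 1.47% of healthy microglia. With the same gated cells thinned to 1000 UMIs each, the shares were 9.46% and 17.2% against 0.296% and 0.746%. Without these cells, 6 of the mitosis genes and 9 of the S phase genes were called higher, a drop that removing cells by these same genes makes in part by construction. Among the named genes, Ube2c stood at 3.93 and Stmn1 at 1.59 without these cells, both called, and Birc5, Ccnb2 and Rrm2 fell below the count filter. In cells thinned and then gated again the counts were 9 and 3, and without EAE replicate 2, 10 S phase genes were called. Ube2c was found in 4.63% and 8.15% of thinned EAE microglia and in 0.339% and 0.428% of the monocyte-gated cells of the same libraries. Over all genes, 1169 were higher and 861 lower without the dividing cells.

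Genes of energy metabolism and protein synthesis took a higher share of the RNA in EAE microglia. Of 18 glycolysis genes 12 were higher and none lower, with a median log2 difference of 1.37. Gapdh stood at 1699 and 1613 CPM in EAE and 337 and 410.4 in healthy microglia (log2 2.16 ± 0.24 SE, adjusted p = 4.88e-06). In log2 units the difference was 2.07 for Pkm, the last enzyme of the pathway, 2.10 for Ldha, which makes lactate and 1.78 for Tpi1; of the hexokinases, Hk3 was called at 1.97, while Hk1 and Hk2 were not, at -0.41 and -0.35. Of 29 respiratory chain and ATP synthase genes 22 were higher and none lower, with a median of 1.04. Cox5b, of complex IV, stood at 428 and 417 CPM in EAE and 143 and 151 in healthy microglia (log2 1.53 ± 0.23 SE, adjusted p = 0.000102). On the log2 scale the difference was 1.51 for Atp5b of the ATP synthase, 1.53 for Uqcrq of complex III and 1.57 for Ndufa1 of complex I. Of 56 cytosolic ribosomal protein genes 33 were higher and none lower, with a median of 0.73. Rps2 stood at 2166 and 2216 CPM in EAE and 783 and 859 in healthy microglia (log2 1.42 ± 0.23 SE, adjusted p = 0.000237). The log2 difference was 1.31 for Rpl41, 1.31 for Rpl35 and 1.18 for Rpl19, and processed pseudogenes make the reads of ribosomal protein genes uncertain. The ribosomal count was 8 among cells with at least 3620 UMIs, 13 among cells with no UMI of the 7 monocyte genes and 19 without EAE replicate 1. With 1 library left out, the log2 difference became 0.24 (EAE replicate 1 left out) or -1.01 (EAE replicate 2 left out) for Hk1. With the monocyte profile subtracted, the log2 difference became -1.06 for Hk1 (from -0.41).

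Of 8 genes of the NADPH oxidase, the enzyme that makes superoxide, 3 were higher and none lower, in cells sorted as negative for the ROS dye. Cybb, the catalytic subunit gp91phox, stood at 366 and 145 CPM in EAE and 8.42 and 12.7 in healthy microglia (log2 4.81 ± 0.43 SE, adjusted p = 5.18e-07). Cyba, its membrane partner, stood at 2753 and 2060.3 CPM in EAE and 1107 and 1144 in healthy microglia (log2 1.10 ± 0.24 SE, adjusted p = 0.00281). Rac2, the activating GTPase, stood at 356 and 355 CPM in EAE and 140.2 and 107 in healthy microglia (log2 1.49 ± 0.23 SE, adjusted p = 0.000174). The cytosolic subunits Ncf1 and Ncf4 were not called, with log2 differences of 0.33 and 0.15, and microglia held 43.5% and 19.0% of the monocyte-gated level of Cybb. Of 26 glutathione and ROS scavenging genes 13 were higher and 1 lower, with a median log2 difference of 0.91; 8 were higher with the monocyte profile subtracted. Txn1, thioredoxin, stood at 549 and 535 CPM in EAE and 63.2 and 109 in healthy microglia (log2 2.75 ± 0.28 SE, adjusted p = 1.61e-06). Gpx3, the secreted glutathione peroxidase, gave 112 UMIs against 0, at least 43.0-fold higher, adjusted p = 6.83e-06. The bound for Gpx3 takes 3 UMIs over the healthy group as the floor. Log2 differences stood at 2.01 for Prdx5 and 4.21 for Mgst1, both called, and -0.26 for Gclc and 0.17 for Gclm, the subunits that start glutathione synthesis, neither called. Of 8 iron genes 3 were higher and 2 lower. Fth1, the ferritin heavy chain, stood at 13254 and 9331 CPM in EAE and 3446 and 3962 in healthy microglia (log2 1.61 ± 0.26 SE, adjusted p = 0.000265). Slc40a1, the iron exporter ferroportin, stood at 7.72 and 4.11 CPM in EAE and 81.5 and 43.6 in healthy microglia (log2 -3.36 ± 0.37 SE, adjusted p = 4.87e-06). The storage gene was thus higher and the export gene lower in both EAE libraries. The ferritin light chain Ftl1 had a log2 difference of 1.29. After subtraction of the monocyte profile, Prdx5 stood at 1.06 and Fth1 at 0.97, both called, and Mgst1 fell below the count filter. Leaving out a single library, the log2 difference became 3.94 (EAE replicate 1 left out) for Cybb, -4.04 (EAE replicate 1 left out) or -2.76 (healthy replicate 1 left out) for Slc40a1 and -1.01 (EAE replicate 1 left out) for Gclc.

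Immediate-early genes, which cells switch on within minutes of a stimulus, were lower in 17 of 22 tested members and higher in none, with a median log2 difference of -1.48. Jun stood at 461 and 673 CPM in EAE and 2894 and 2577 in healthy microglia (log2 -2.28 ± 0.26 SE, adjusted p = 6.24e-06). Klf2, a transcription factor of quiescence, stood at 184 and 294 CPM in EAE and 1995 and 819 in healthy microglia (log2 -2.58 ± 0.35 SE, adjusted p = 4.55e-05). Rhob, an early-response GTPase, stood at 241 and 259.8 CPM in EAE and 1263 and 888 in healthy microglia (log2 -2.11 ± 0.25 SE, adjusted p = 9.32e-06). Differences on the log2 scale were -2.09 for Btg2, -1.39 for Fos and -1.56 for Egr1. Healthy replicate 1 lay above healthy replicate 2 for all 6, and without it 10 genes of the list were lower and 2 higher. Tissue digestion is known to induce these genes; both groups were digested, and its part was not tested. Heat shock genes moved in both directions, 6 of 12 higher and 3 lower. Hspe1, a mitochondrial chaperonin, stood at 476 and 607 CPM in EAE and 189 and 196 in healthy microglia (log2 1.49 ± 0.23 SE, adjusted p = 0.000175). Dnajb1, an inducible co-chaperone, stood at 35.2 and 58.4 CPM in EAE and 288 and 105 in healthy microglia (log2 -2.20 ± 0.36 SE, adjusted p = 0.000280). In log2 units the difference was 1.70 for the chaperonin Hspd1 and -2.16 for the inducible Hspa1a, and among cells with at least 3620 UMIs 2 of the list were higher. When 1 library was dropped, the log2 difference became -1.82 (healthy replicate 1 left out) for Klf2, -0.86 (healthy replicate 1 left out) for Egr1 and -1.26 (healthy replicate 1 left out) for Dnajb1.

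How widely a gene was carried was read from cells thinned to 1000 UMIs each, which left out 41 and 2 shallower cells of the healthy libraries and none of the EAE libraries. Cd74 was found in 99.0% and 91.4% of EAE cells and 6.22% and 8.96% of healthy cells. H2-Ab1 was found in 93.4% and 91.4% of EAE cells and 3.97% and 2.99% of healthy cells. Monocyte RNA bears on these 2 genes: Cd74 was found in 99.2% and 96.2% of thinned monocyte-gated cells and H2-Ab1 in 99.0% and 93.7%, and monocyte RNA at the 13.3% and 10.1% of the marker list, if spread evenly, would by itself give a UMI of Cd74 in 95.8% and 81.9% and of H2-Ab1 in 81.0% and 62.6% of EAE microglia. Their shares are therefore no measure of how many microglia express them. The levels lay above this background, at 10.9 and 6.30 UMIs of Cd74 per 1000 UMIs of EAE microglia against 3.17 and 1.71, and at 4.49 and 2.55 against 1.66 and 0.983 for H2-Ab1. Once the monocyte profile was subtracted the log2 difference was 6.21 for Cd74 and 6.11 for H2-Ab1, both called. Ifi27l2a was found in 68.8% and 67.8% of EAE cells and 3.91% and 2.24% of healthy cells, where the same background would give 10.7% and 12.1%. Iigp1 was found in 22.9% and 43.8% of EAE cells, where the background would give 1.95% and 1.45%. The 10% of EAE cells with the most UMIs of a gene held 58.1% and 62.0% of those of Cxcl10 and 68.3% and 73.7% of those of Cxcl9. Cxcl13 was found in 9.05% and 0.429% of EAE cells, so that its level in EAE replicate 1 came from a small part of them. On the lower side, Gpr34 was found in 19.1% and 12.9% of EAE cells and 81.2% and 85.8% of healthy cells. Hpgd was found in 4.83% and 4.29% of EAE cells and 41.9% and 34.3% of healthy cells. The monocyte-gated cells of the EAE libraries, which should lack both, held Gpr34 in 0.566% and 0.428% and Hpgd in 0.339% and 0.428% of thinned cells.

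**Figure D3:**
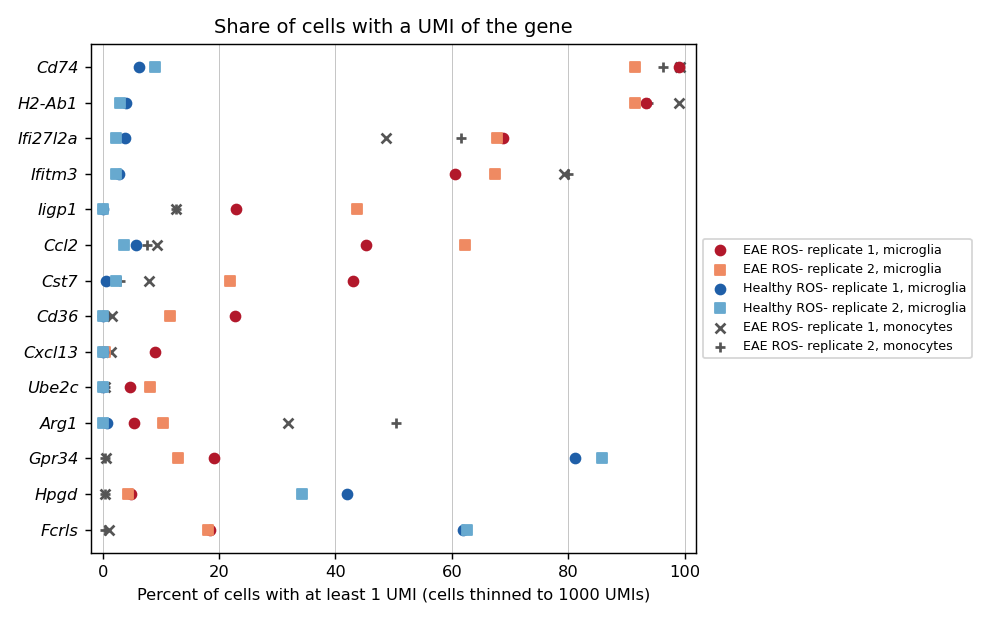
Percent of cells with at least 1 UMI of each of 14 genes, after thinning every cell to 1000 UMIs, in EAE and healthy microglia and, beside them, in the monocyte-gated cells of the EAE libraries, with 1 point per library. Ifi27l2a stands at 68.8% and 67.8% of EAE microglia against 3.91% and 2.24% of healthy microglia; for Cd74 and H2-Ab1, monocyte RNA spread evenly at the marker list's level would alone give a UMI in most EAE microglia. Gpr34 stands at 19.1% and 12.9% against 81.2% and 85.8%.

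Monocyte-gated cells of the same libraries gave a scale for genes that both cell types express; the 2 kinds of cell are set side by side here, with no test. Of the 1536 higher genes, 710 stood above the monocyte-gated level in both EAE libraries. At or below the 13.3% and 10.1% that the monocyte marker list reached stood 34. These percents pool the list, and in both libraries its markers lay on both sides of them. The 34 are therefore no count of the genes whose level monocyte RNA alone could give. Ccl2 stood at 664% and 777% of the monocyte level in EAE replicates 1 and 2, Cd36 at 1064% and 1069% and Ifi27l2a at 182% and 121%. Below the monocyte level stood Cd74 at 45.8% and 37.3%, H2-Ab1 at 36.0% and 26.3% and Ccl5 at 26.0% and 14.9%. Class II RNA was thus higher in the monocyte-gated cells and Ccl2 and Cd36 RNA in the microglia, in both replicates. After subtraction of the monocyte profile, scaled to the marker list, 1268 genes were higher and 908 lower. There 4 higher genes turned to lower: Crip1, S100a10, S100a11 and Vim, named after their values were seen. Their log2 differences ran from 1.24 to 4.16 before the subtraction and from -8.46 to -2.43 after it. The subtraction took 1 scale per EAE library and nothing from the healthy libraries. Markers varied around that scale in EAE replicate 1. Ly6i stood at 61.7 CPM of the plain gated total against 940.6 in monocyte-gated cells, and Cd44 at 41.6 against 128.1. So 1 scale can remove too much of some genes and too little of others. Whether the 4 genes are lower in the microglia themselves was not tested.

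**Figure D4:**
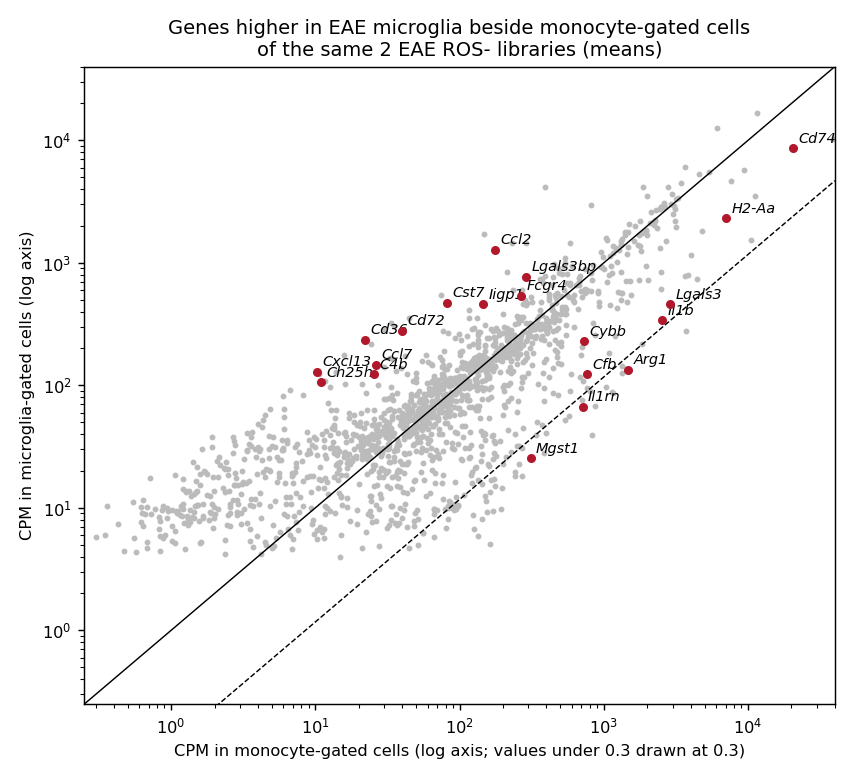
CPM of genes called higher, in microglia (vertical, log axis) against monocyte-gated cells (horizontal, log axis, values under 0.3 drawn at 0.3), each as the mean of the 2 EAE libraries, with some named genes in red. The solid line marks equal levels and the dashed line the mean percent of the monocyte level that the monocyte marker list reached; counted in each library, 710 of 1536 genes stand above the monocyte level in both and 34 at or below the list's percent in both.

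Because EAE cells were deeper and held more monocyte RNA, the log2 differences were set beside those from 4 other choices of cells or counts. Cells thinned to 1000 UMIs and gated again with at least 3 microglia UMIs, which changes the cells too (374 and 181 in EAE and 1668 and 181 in healthy libraries), gave 598 higher and 506 lower among 3998 genes tested, and cells with at least 3620 UMIs, the highest of the smallest barcode totals, gave 850 and 748. With cells of at least 3620 UMIs, Cst7 stood at a log2 difference of 3.82 against 4.68, Cd74 at 5.86 against 6.52 and Gpr34 at -3.06 against -3.26. Ccl2 stood at 2.56 against 3.70, Cxcl10 at 3.21 against 4.26 and Itgax at 2.77 against 4.04, all called, while Klf2 stood at -3.44 against -2.58. Of the named genes, Tgif1, Mertk and Fcgr1 were not called in these deeper cells. In these 4 settings no gene was called both here and there with opposite directions, except the 4 named above.

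**Figure D5:**
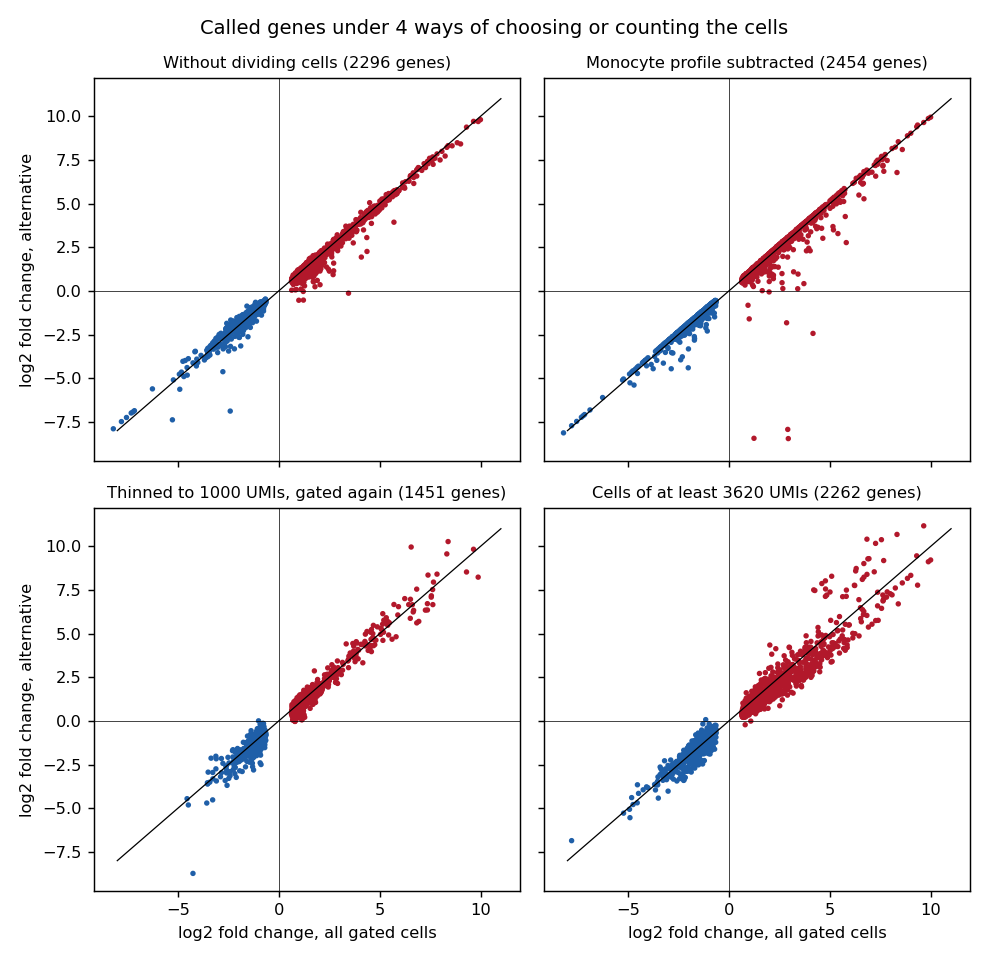
Log2 difference under 4 alternatives (vertical) against the reported log2 difference (horizontal) for the called genes that could be tested in each: without dividing cells (2296 genes), with the monocyte profile subtracted (2454), thinned to 1000 UMIs and gated again (1451) and cells with at least 3620 UMIs (2262). Red points are genes called higher and blue points genes called lower; points on the diagonal are unchanged, and the 4 genes named above are among the red points below 0 in the monocyte panel.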

How the data were processed

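Single-cell RNA was measured in 6 droplet libraries made with the Chromium 3′ v2 kit, as the labels' protocols state. Each file holds whole-number UMI counts for genes by barcodes, as deposited by the authors; Cell Ranger 2.0.1, Seurat 3, R 3.4.2 and the mm10 build are named in the submitters' processing notes, without their roles. Every deposited barcode entered the gate, and no doublet caller was run. The monocyte and endothelial conditions leave out only cells beyond their limits, and cells with fewer UMIs of those genes pass. Only 6.84% and 6.44% of EAE microglia held no UMI of the monocyte gate genes. The gate's cells, members and gene lists were chosen with earlier results of these data known.

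UMI counts of gated cells were summed per library and scaled by TMM in edgeR 4.0.16 under R 4.3.3. Genes that passed filterByExpr (minimum count 10) entered a quasi-likelihood F test, called at a Benjamini-Hochberg adjusted p below 0.05, over 4 libraries with 2 residual degrees of freedom and no replicate block. The 15 gate genes were not tested. SE is the log2 difference divided by the square root of F. CPM values refer to the TMM-scaled gated total. A gene with 1 to 3 UMIs in a group is given as a ratio with a counting interval, and 1 at 0 as a bound against 3 UMIs over the group.

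Genes were named by rule: per direction the 12 largest differences (adjusted p under 0.05, average log2 CPM of at least 5, groups not overlapping), the 4 smallest p of each of 28 lists, and microglia markers outside the gate, 132 in all; a gene the rule also picked and a few list members are not reported here. Other list members were named for their roles after their values were seen. Same-numbered replicates did not deviate together (correlation -0.01), so numbers were not taken as pairs. Alternatives were DESeq2 1.42.0, no count filter, a replicate block, all 6 libraries, each library left out, other gate limits, thinning to 1000 UMIs (seed 11) with a new gate of at least 3 microglia UMIs, a cell quality filter, no dividing cells and subtraction of the monocyte profile; plain library totals and a floor of 3620 UMIs per cell were added after seeing the data. Gene coordinates are from GENCODE on GRCm38, and promoters from RefSeq on GRCm38.p6.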

Additional observations from a re-analysis of the deposited data

How the results depend on the processing

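Of 10760 genes tested, 1536 were higher and 1076 lower. DESeq2 gave 1005 and 468, cells with no monocyte gate UMI 355 and 219 among 4363 genes tested (34 and 15 EAE cells), and cells thinned to 1000 UMIs and gated again with at least 3 microglia UMIs 598 and 506 among 3998. Cells with at least 3620 UMIs gave 850 higher, and plain library totals 1784 lower. With 1 library left out, counts ran from 1004 to 1810 higher and from 611 to 1239 lower. With the replicate number as a block, counts were 1623 and 1175; the numbers do not pair the samples (correlation of same-numbered deviations -0.01, and -0.03 for genes over an average log2 CPM of 5). The other settings stayed within 1.5 times of both counts. For the 132 genes named by rule, 2286 of the recomputed values kept direction and side of the threshold. A further 31 lost the call, 8 gained it and 2 changed sign. Those 2 belong to genes that were not called: Crybb1, from -1.18 to 0.33 with 1 library left out (0.33 without EAE replicate 1), and Pros1, 0.056 with the monocyte profile subtracted. The cause was not tested. List members named for their roles are outside this tally. Among them Lpl, Abca1 and Hk1, none of them called, changed sign without EAE replicate 1. Depth limits genes near 0 in healthy replicate 2, which held 136 gated cells.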
